A study of Mus musculus with 4 samples.

Results

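Genes of the meiotic chromosome axis, the synaptonemal complex and the meiotic cohesin were followed in mouse J1 embryonic stem cells. The members were chosen by gene symbol, as all probe sets whose platform annotation names 1 of 10 genes, and 9 of the 10 genes had a probe set, 1 each, among 17097 named genes. Sycp1 had none and was not analysed here. The 10 genes were chosen with earlier results of these data known, so their ranks among all genes below are descriptions only. The study measured total RNA on 4 Affymetrix arrays, 1 for each of 4 conditions. Per the labels these were Tet1/Tet2 KD + PRDM14, Tet1/Tet2 KD, Scramble + PRDM14 and Scramble. Tet1/Tet2 KD is a double knockdown by short hairpin RNA, and PRDM14 stands for overexpression in a line called iP14, with or without doxycycline. All 4 cultures were grown without feeder cells in medium with serum and LIF. The question given for the series is what TET1 and TET2, dioxygenases that oxidise 5-methylcytosine, do in gene regulation by PRDM14, a transcriptional regulator active in pluripotent cells and in the germ line. The sources used here give neither the dose and time of doxycycline nor the number of clones, and an effect of doxycycline itself cannot be told apart from one of PRDM14. With 1 array per condition no difference below could be set against a spread between replicates, and the small number of arrays limits precision throughout.

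In meiotic prophase, sister chromatids are held by a cohesin with the subunits REC8, SMC1B and STAG3, on which an axis of SYCP2, SYCP3 and HORMAD1 forms. SYCP1 then joins the paired axes across a central element that contains SYCE1 and SYCE2, and MEIOC, with the helicase YTHDC2, keeps germ cells in the meiotic programme. In somatic cells several of these genes are silenced by DNA methylation of their promoters and by a Polycomb complex that contains E2F6, MGA and MAX. Embryonic stem cells do not undergo meiosis.

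The values are log2 probe set signals, and a value of 5.40, the median over all probe sets with 1 named gene, served as the filter on low signals. A gene was called higher or lower at a difference of 2-fold or more between the 2 arrays, a log2 difference of 1, provided that the brighter array was at or above the filter. Such a call is a rule of size and not a test. Between probe sets of 1 gene the same differences had a pooled SD of 0.15 to 0.25 over the 5 comparisons, which covers neither cultures nor arrays, and each gene described here rests on 1 probe set. Of the 9 genes, 8 reached the filter on at least 1 array. Sycp2 did not.

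The 4 arrays had nearly equal medians, from 5.09 to 5.11, but the Scramble array stood furthest from the rest. It had 49 genes that differed from each other array by 2-fold or more in 1 direction, against 12 on the Tet1/Tet2 KD + PRDM14 array, 7 on the Tet1/Tet2 KD array and 27 on the Scramble + PRDM14 array. Of 7 measured stem cell markers, among them Pou5f1, Nanog and Sox2, 7 were above the filter on every array. Of 8 fibroblast markers 1 was above it, and of 8 spermatocyte and spermatid markers 2, Prm1 and Prm2, with signals between 5.58 and 5.78. Tet2 read 8.15 and 7.50 on the knockdown arrays with and without PRDM14, against 9.33 and 8.46 on the matching scramble arrays. Tet1 was not analysed here, so that part of the knockdown label has no check. Prdm14 read 4.35 to 4.83, below the filter on every array, so the PRDM14 labels have no check here, and PRDM14 differences take their direction from those labels alone.

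Sycp3, a component of the axis and lateral element, varied most among the 9 genes, over a range of 2.92 log2 units. It read 7.36 on the Tet1/Tet2 KD + PRDM14 array, 6.43 on the Tet1/Tet2 KD array, 5.50 on the Scramble + PRDM14 array and 8.42 on the Scramble array. The order of the arrays thus turned round between the backgrounds, with PRDM14 the higher of the knockdown pair and the lower of the scramble pair. The Sycp3 value of 5.50 on the Scramble + PRDM14 array lay close to the filter. Its partner Sycp2 showed nothing of the kind, at 3.44, 3.44, 3.45 and 3.54 in the same order of arrays, all below the filter. Hormad1, the HORMA-domain protein of unsynapsed axes, read 4.51, 4.75, 4.66 and 5.53 in that order, and was above the filter on the Scramble array alone.

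Of the central element genes, Syce1 read 5.38 on the Tet1/Tet2 KD + PRDM14 array, 5.22 on the Tet1/Tet2 KD array, 5.61 on the Scramble + PRDM14 array and 6.32 on the Scramble array. Syce2 was far above the filter throughout, at 10.22, 10.26, 9.71 and 10.24 in that order. The Scramble + PRDM14 array was thus the low one for Syce2 and the other 3 lay between 10.22 and 10.26, whereas Syce1 was high on the Scramble array.

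The signals of the cohesin subunits were not alike. Stag3 read 4.82 on the Tet1/Tet2 KD + PRDM14 array, 5.01 on the Tet1/Tet2 KD array, 4.66 on the Scramble + PRDM14 array and 6.39 on the Scramble array, the only one above the filter. Smc1b stayed between 5.31 and 5.47 and the kleisin Rec8 between 5.46 and 5.53, ranges of 0.16 and 0.07, so neither separated the conditions beyond the spread between probe sets. Both stayed close to the filter, which Smc1b reached on 2 arrays only, so these values cannot show whether either gene was expressed. Meioc read 6.29 and 5.08 on the knockdown arrays with and without PRDM14, and 4.97 and 5.95 on the scramble arrays with and without it. As for Sycp3, PRDM14 marked the higher of the knockdown pair and the lower of the scramble pair.

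**Figure D1:**
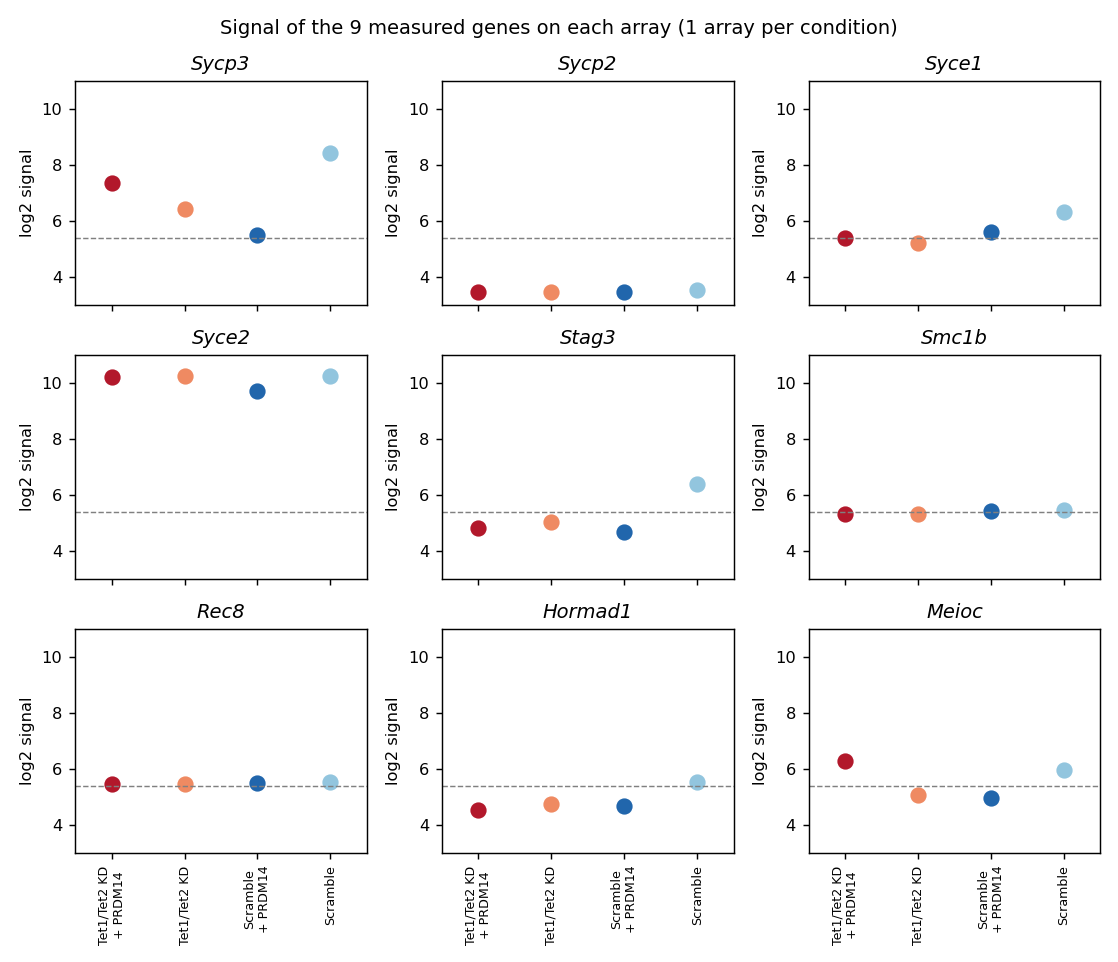
Log2 signal (vertical axis) of the 9 measured genes on each of the 4 arrays (horizontal axis, 1 array per condition, so no error bars), with a dashed line at the filter of 5.40. Sycp3 runs from 5.50 on the Scramble + PRDM14 array to 8.42 on the Scramble array, while Sycp2, Smc1b and Rec8 are nearly flat.

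By array, 7 of the 9 genes had their highest signal on the Scramble array, 1 (Meioc) on the Tet1/Tet2 KD + PRDM14 array and 1 (Syce2) on the Tet1/Tet2 KD array. Over the 10519 genes above the filter on at least 1 array, 29.7% were highest on the Scramble array. The 9 were counted without that filter, so the 2 shares are not like for like. Of the 7, Sycp2 was below the filter on every array, and Stag3 and Hormad1 were above it on the Scramble array alone. Sycp2, Smc1b and Rec8 had ranges of only 0.10, 0.16 and 0.07. The count describes 1 array that also stood apart over all genes, and no comparison that subtracts that array can be made without it. In RNA from whole cultures, fewer cells that express a gene and less RNA per cell cannot be told apart.

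The upstream sequences are shown for the 4 genes called in at least 1 of the comparisons below, Sycp3, Stag3, Meioc and Syce1, and for Hormad1, which like Stag3 was above the filter on the Scramble array alone, because the series concerns DNA methylation, which acts on CG dinucleotides. They were taken from the RefSeq promoter table (build GRCm38.p6), run 5′ to 3′ on the strand of the gene, and end 4 bases into the transcript. Capitals mark the letters TCCCGC or its reverse complement GCGGGA, the core of E2F sites, and CACGTG, the E-box that MAX dimers can bind, which is its own reverse complement. Sycp3 lies on chr10:88459337-88459590 (plus strand), Stag3 on chr5:138280259-138280512 (plus), Hormad1 on chr3:95559427-95559680 (plus), Meioc on chr11:102665335-102665588 (plus) and Syce1 on chr7:140787851-140788104 (minus).
Sycp3: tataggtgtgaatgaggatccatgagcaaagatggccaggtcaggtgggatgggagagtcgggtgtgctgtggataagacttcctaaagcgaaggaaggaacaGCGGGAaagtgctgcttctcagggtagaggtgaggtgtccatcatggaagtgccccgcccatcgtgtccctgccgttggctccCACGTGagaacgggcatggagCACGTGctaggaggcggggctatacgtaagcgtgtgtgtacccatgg
Stag3: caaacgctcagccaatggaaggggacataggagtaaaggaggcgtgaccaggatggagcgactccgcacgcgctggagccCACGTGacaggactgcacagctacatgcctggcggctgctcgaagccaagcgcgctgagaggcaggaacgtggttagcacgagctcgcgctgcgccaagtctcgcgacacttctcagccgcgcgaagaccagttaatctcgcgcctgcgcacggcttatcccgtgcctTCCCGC
Hormad1: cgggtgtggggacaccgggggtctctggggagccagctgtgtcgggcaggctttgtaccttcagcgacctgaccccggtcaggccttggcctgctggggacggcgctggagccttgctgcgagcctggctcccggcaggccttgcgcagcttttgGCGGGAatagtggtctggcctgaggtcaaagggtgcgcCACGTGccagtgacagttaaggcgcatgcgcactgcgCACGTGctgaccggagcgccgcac
Meioc: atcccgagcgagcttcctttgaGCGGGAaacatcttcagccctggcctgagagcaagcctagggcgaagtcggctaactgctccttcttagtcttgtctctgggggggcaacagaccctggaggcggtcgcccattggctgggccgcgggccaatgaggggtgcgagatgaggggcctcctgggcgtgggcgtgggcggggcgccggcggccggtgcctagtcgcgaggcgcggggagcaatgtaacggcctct
Syce1: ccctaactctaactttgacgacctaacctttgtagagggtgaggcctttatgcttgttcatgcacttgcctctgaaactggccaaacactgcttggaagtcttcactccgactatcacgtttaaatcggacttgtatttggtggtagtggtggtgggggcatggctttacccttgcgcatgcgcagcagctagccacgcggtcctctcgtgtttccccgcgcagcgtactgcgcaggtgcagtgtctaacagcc

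In these stretches Sycp3 and Hormad1 have 2 CACGTG and 1 GCGGGA each, Stag3 has 1 CACGTG and 1 TCCCGC at the transcript start, Meioc has 1 GCGGGA and Syce1 has neither. Over the full windows of 300 bases, 250 before and 50 after the start, the E2F letters on either strand were found for 8 of the 10 genes and CACGTG for 5 (Sycp1, Sycp3, Stag3, Hormad1 and 1 of 2 windows of Syce2). Over 27025 genes of the table these shares were 22.05% and 8.09%. Counted by window, the shares were 83.3% and 50% for these genes, against 28.8% and 8.69% for genes on the array. The windows of these genes were also rich in CG, with a median of 22.5 CG dinucleotides against 7 over all 32851 windows and 16 over those of genes on the array. Both the E2F letters and CACGTG contain a CG themselves. Among the 9 measured genes the number of CG ran from 10 (Sycp2) over 14 (Syce1) and 15 (Sycp3) to 30 (Stag3) and 33 (1 of 2 windows of Syce2). The other window of Syce2 had 19, and the relation of this count to the signals was not tested. A match of letters is a description and not a bound site.

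PRDM14 in knockdown cells was compared first, Tet1/Tet2 KD + PRDM14 against Tet1/Tet2 KD, which leaves out both scramble arrays. Meioc was called higher, at a log2 difference of 1.21 (6.29 against 5.08). Sycp3 was also higher, at 0.93 (7.36 against 6.43), just under 2-fold, and 44 of 10311 genes that passed the filter had a difference at least as high. Higher calls made up 0.359% of those genes and lower calls 0.272%, against 1 and 0 of the 9 genes here. The other 7 genes lay between −0.24 (Hormad1) and 0.16 (Syce1), of which only Syce2 (−0.04) and Rec8 (−0.01) passed the filter in this comparison. The median over all 9 was −0.003, against −0.005 over all named genes. With low values raised to the filter, Meioc was at 0.89 and was not called.

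PRDM14 in scramble cells, Scramble + PRDM14 against Scramble, had its calls on the other side of 0. Sycp3 was at −2.92 (5.50 against 8.42), the lowest of 10366 genes that passed the filter, and Stag3 at −1.73 (4.66 against 6.39), and these were the 2 of 9 genes called. Lower calls made up 1.00% and higher calls 1.09% of the genes tested. Meioc (−0.99), Hormad1 (−0.87), Syce1 (−0.71) and Syce2 (−0.53) were below 0 without reaching 2-fold. Sycp2 (−0.09), Smc1b (−0.05) and Rec8 (−0.04) differed by less than the spread between probe sets. All 9 differences were thus below 0, against 48.9% of all named genes, and their median was −0.71 against 0.003 over all named genes. Each of them subtracts the Scramble array. With raised values Stag3 was just under the threshold at −0.996, Hormad1 and Meioc were at −0.14 and −0.56, and the median over the 9 was −0.53.

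The difference of the 2 PRDM14 differences, knockdown minus scramble, bears on the question of the series. For Sycp3 it was 3.86, the highest of 10519 genes, and for Meioc 2.19, reached or passed by 5 genes counting Meioc itself. Stag3 followed at 1.54, and these 3 of the 9 genes were called, where higher calls made up 0.979% and lower calls 1.29% of the genes tested. The cases are not alike, since Sycp3 and Meioc had differences of opposite sign in the backgrounds, 0.93 and 1.21 in knockdown cells against −2.92 and −0.99 in scramble cells. Stag3 was below 0 in both, at −0.19 in knockdown cells, where both arrays read below the filter, against −1.73 in scramble cells. Syce1 (0.87), Hormad1 (0.63), Syce2 (0.49), Sycp2 (0.09), Smc1b (0.07) and Rec8 (0.03) were above 0 without a call. With raised values Sycp3 and Meioc (1.45) remained called and Stag3 was at 0.996. This contrast contains all 4 arrays, and it was not tested, since no array is left to give its error.

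**Figure D2:**
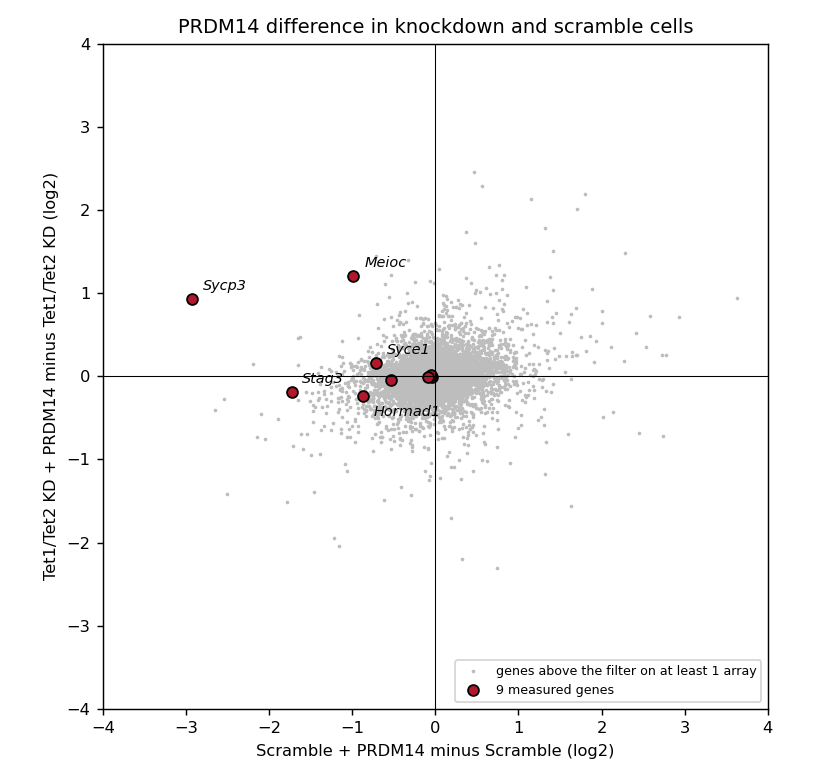
PRDM14 difference in knockdown cells (vertical axis, log2) against that in scramble cells (horizontal axis, log2) for the 10519 genes above the filter on at least 1 array (grey) and the 9 measured genes (red). The axes share no array. Sycp3 (0.93 and −2.92) and Meioc (1.21 and −0.99) lie above 0 on the vertical and below 0 on the horizontal axis, and Stag3 lies far to the left near 0 on the vertical axis.

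Knockdown with PRDM14, Tet1/Tet2 KD + PRDM14 against Scramble + PRDM14, had Sycp3 and Meioc called higher, Sycp3 at 1.86 (7.36 against 5.50) and Meioc at 1.32 (6.29 against 4.97). Higher calls made up 0.630% and lower calls 0.475% of 10322 genes, and 6 and 20 genes reached the value of Sycp3 and of Meioc, each counted with itself. Syce2 was at 0.51 (10.22 against 9.71), and the other 6 genes lay between −0.23 (Syce1) and 0.16 (Stag3). The median over the 9 was −0.009, against −0.007 over all named genes. Neither array is the Scramble array, but the comparison shares its arrays with those above and repeats part of their content. With raised values Meioc was at 0.89.

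Knockdown without PRDM14, Tet1/Tet2 KD against Scramble, had 3 of the 9 genes called, and each was lower. They were Sycp3 at −1.99 (6.43 against 8.42), Stag3 at −1.38 (5.01 against 6.39) and Syce1 at −1.10 (5.22 against 6.32), and lower calls made up 0.444% and higher calls 0.618% of 10351 genes. Meioc (−0.87) and Hormad1 (−0.78) were below 0 without a call, and Syce2 (0.02) was above it. The median over the 9 was −0.78, against 0.004 over all named genes. This comparison and that of PRDM14 in scramble cells subtract the same array, so the lower values in both are not separate observations. With raised values Sycp3 was the gene called, Stag3 was again at −0.996, Syce1 at −0.92, Meioc at −0.56 and Hormad1 at −0.14, and the median over the 9 was −0.14.

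**Figure D3:**
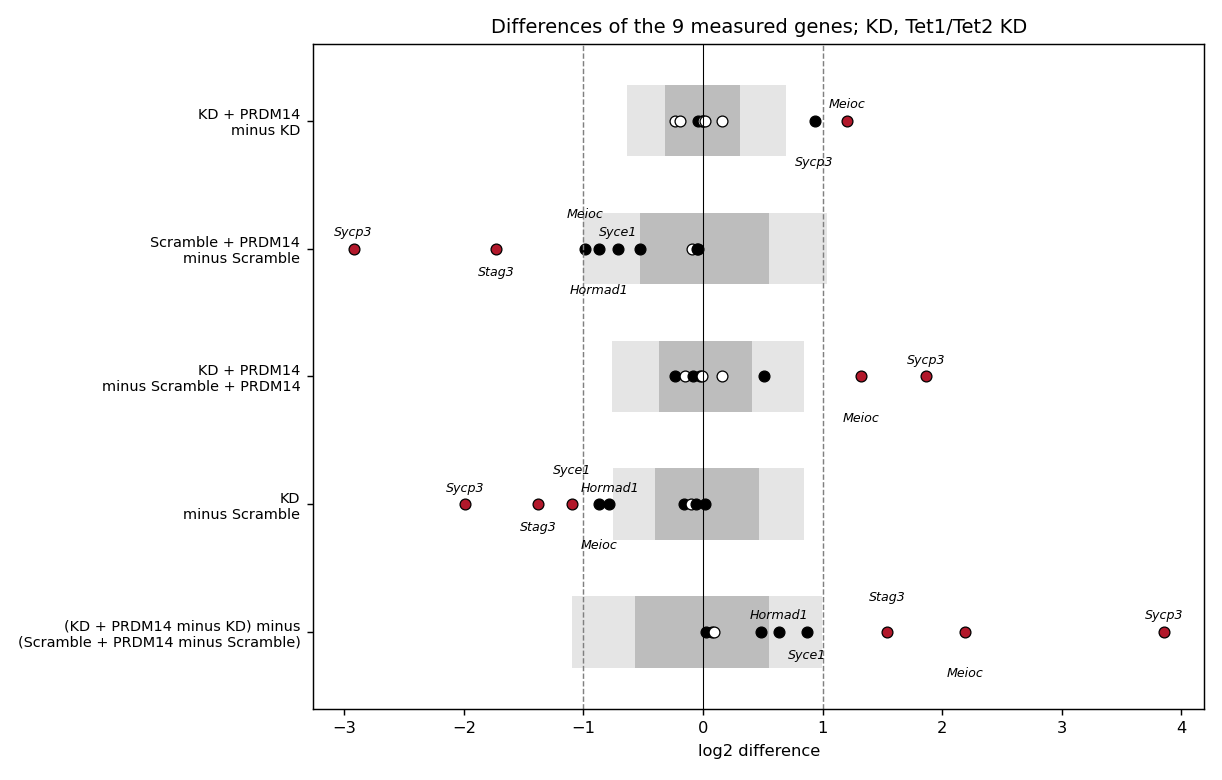
Log2 differences of the 9 measured genes in the 5 comparisons (first-named array minus the second), with calls in red, other genes that passed the filter in black and genes below it on both arrays in white. Grey bands span the 5th to 95th (dark) and 1st to 99th (light) percentile of all genes that passed the filter, and dashed lines mark 2-fold. Sycp3 lies outside the bands in every comparison, Sycp2, Smc1b and Rec8 within them.

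An additive model over the 4 arrays, with a term for the knockdown and one for PRDM14, is the fit in which each term has arrays on both sides. In limma, with 1 residual degree of freedom, 0 of the 8 genes tested passed an adjusted p of 0.05 for either term, and 0 had an unadjusted p under 0.05. Over all 10519 genes 0 passed as well (0.00%), while 6.07% and 5.74% had an unadjusted p under 0.05 for the PRDM14 and the knockdown term. The lowest adjusted p among the 8 genes was 0.78 for PRDM14 and 0.80 for the knockdown. For Sycp3 the PRDM14 term was −0.99 with an SE of 1.07, since its opposite differences in the backgrounds count as error in this model.

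The other genes of meiotic prophase were read in the same comparisons. Of 36 listed genes for recombination, synapsis and telomere attachment 28 were measured, and 16 reached the filter on at least 1 array. For PRDM14 in knockdown cells 14 passed the filter and none was called, where 0.630% of all genes tested were called. The median over the 28 was −0.04, and the largest differences were Ccnb1ip1 (0.56), Sgo2a (−0.50) and Mei4 (0.47). For PRDM14 in scramble cells 16 passed and none was called, beside 2.09% of all genes tested. At such shares a list of this size can have no call without differing from all genes. The median in scramble cells was −0.13. The largest there were Tex15 (−0.76), which acts in germ cell transposon silencing and recombination, the crossover factor Ccnb1ip1 (0.73), Mei4 (−0.60) and 4930447C04Rik (−0.54), listed as Six6os1, a central element protein.

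The one gene called in that list was Mei4, required for meiotic DNA double-strand breaks. It read 6.67 and 6.20 on the knockdown arrays with and without PRDM14, against 5.21 and 5.80 on the matching scramble arrays. Its knockdown difference with PRDM14 was 1.46 and its difference of PRDM14 differences 1.07. Higher calls made up 0.630% and 0.979% of all genes tested there. The axis gene Hormad2, the recombination genes Spo11, Dmc1 and Msh4 and the central element genes Syce3 and Tex12 read below the filter on all 4 arrays and differed by at most 0.30 between any of the arrays compared.

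Mitotic cohesin, the complex all dividing cells use, was above the filter on every array for each of 15 measured genes of 16, and none was called in any of the 5 comparisons. Over all genes tested the calls made up 0.630% to 2.27% in these comparisons, so none in 15 is near that share. Stag1 and Stag2, the relatives of Stag3, were at −0.03 and 0.38 with PRDM14 in knockdown cells and at −0.58 and 0.01 in scramble cells. The list median was −0.05 in knockdown and −0.17 in scramble cells. In the list on entry into meiosis 1 of 9 measured genes was called, the RNA-binding protein Dazl, at −1.26 with PRDM14 in scramble cells (5.33 against 6.58) and −0.64 in knockdown cells (5.43 against 6.07). Lower calls made up 1.00% of all genes tested in scramble cells. Stra8, which retinoic acid induces at meiotic entry, was at −0.56 in knockdown and −0.06 in scramble cells, and Ythdc2, the partner of Meioc, at 0.61 and 0.15.

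Genes that silence germline promoters were read beside them. In the E2F6, MGA and MAX complex, 13 of 14 listed genes were measured and none was called for PRDM14 in either background. Over all genes tested, calls made up 0.630% in knockdown and 2.09% in scramble cells. Tfdp1, the dimer partner of E2F proteins, was at 0.21 in knockdown cells (10.11 against 9.90) and at −0.72 in scramble cells (9.34 against 10.06), E2f6 at 0.09 and −0.18, and Mga at 0.40 and −0.18. Yaf2 was called higher in the knockdown without PRDM14, at 1.01 (6.32 against 5.31), where higher calls made up 0.618% of all genes tested. Among 9 DNA methylation genes the de novo methyltransferase Dnmt3b was called higher with PRDM14 in both backgrounds, at 1.78 in knockdown and 1.32 in scramble cells, and Dnmt3l (0.72 and 0.95) and Uhrf1 (0.45 and 0.90) were above 0 without a call. Higher calls made up 0.359% of all genes tested in knockdown and 1.09% in scramble cells. The part of Dnmt3b in the signals of Sycp3 and Meioc was not tested.

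Of 5 measured markers of primordial germ cells, which also express several of these genes, 3 were called lower with PRDM14 in knockdown cells and 4 in scramble cells, where lower calls made up 0.272% and 1.00% of all genes tested. Their summed linear signal was 883 and 2086 on the knockdown arrays with and without PRDM14, and 463 and 1418 on the scramble arrays with and without it. Dppa3 weighs most in these sums, as the brightest of the 5 on each array (log2 9.12, 10.53, 7.17 and 9.68 in that order). Dppa3 was at −1.41 in knockdown and −2.51 in scramble cells, Tfap2c at −1.51 and −1.79, and Kit at −1.05 and −1.08. Prdm1 was called in scramble cells alone, at −0.05 in knockdown and −1.02 in scramble cells, and Dnd1 was not called, at −0.09 and 0.44. Dppa3, Tfap2c and Kit thus had differences below 0 in both backgrounds. The 8 spermatocyte and spermatid markers summed to 220, 225, 234 and 226 on the Tet1/Tet2 KD + PRDM14, Tet1/Tet2 KD, Scramble + PRDM14 and Scramble arrays. The part of any cell type in the values was not tested.

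**Figure D4:**
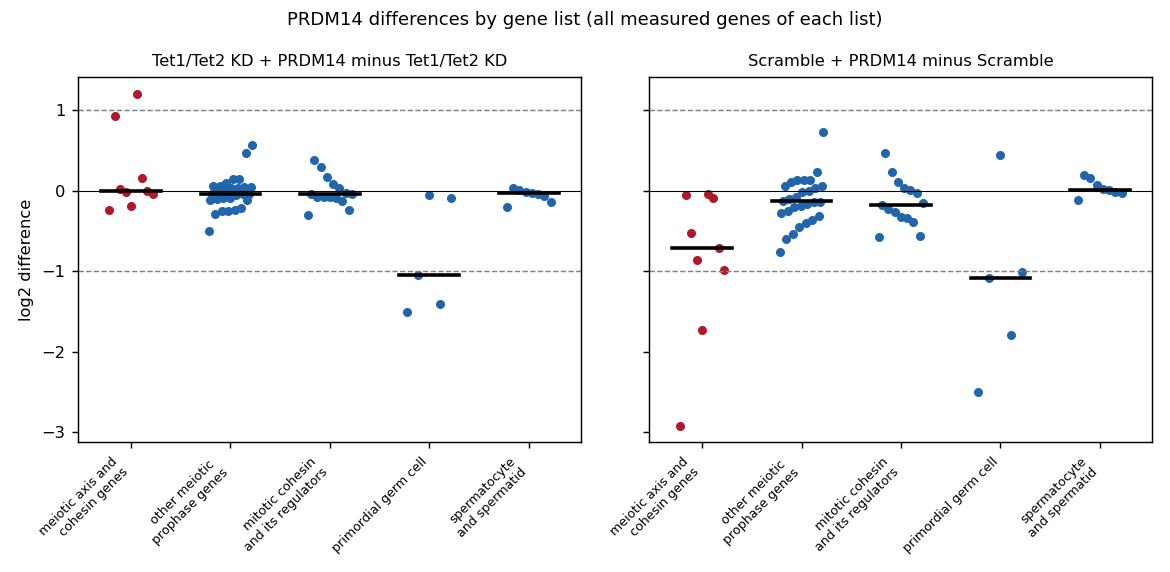
Log2 difference with PRDM14 (vertical axis) for each measured gene of 5 lists (horizontal axis, 1 point per gene, black bars at list medians), in knockdown cells (left) and scramble cells (right), with dashed lines at 2-fold. The 9 meiotic axis and cohesin genes (red) have medians of −0.003 and −0.71, the mitotic cohesin genes −0.05 and −0.17, and the primordial germ cell markers −1.05 and −1.08.

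The genes nearest to Sycp3 and to Stag3 over the 4 arrays were found by the root mean square difference after subtracting each gene's mean. Stag3 had close neighbours. Psat1 (0.087) and Pck2 (0.11), an enzyme of serine synthesis and the mitochondrial phosphoenolpyruvate carboxykinase, came first, followed by the formin Fhod3 (0.12), Zscan4a (0.13) and Lrrc8d (0.15). Sycp3 had none as close, with Cebpb nearest at 0.44, then Retreg1 (0.53), Phkb (0.56), Nupr1 (0.63) and Prkar2b (0.64). The distance is not scaled to the range of a gene, which was 2.92 for Sycp3 and 1.73 for Stag3, so the 2 sets of distances are not directly comparable. In knockdown cells the PRDM14 difference was 0.93 for Sycp3, against 0.15 for Cebpb, 0.14 for Retreg1, 0.46 for Phkb, −0.27 for Nupr1 and −0.51 for Prkar2b. No member of the 10 genes was among either set of 5 neighbours.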

How the data were processed

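Total RNA from 4 cultures was labelled with an Affymetrix GeneChip kit, per the labels' protocols, and the table deposited by the authors holds log2 signals of 45141 probe sets, whose quartiles differed by at most 0.02 between arrays. The submitters' processing notes name Affymetrix Expression Console. Summary method, background correction and genome build were not given in the sources used, so how far low signals were compressed is unknown. That the scale is log2 was read from the range of values, 2.78 to 13.2. Groups were taken from the sample titles, and no per-sample column was left out.

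Of the probe sets, 104 were controls, 28898 had 1 gene in the platform annotation, 551 several and 15588 none. Only those with 1 gene were used, and 28689 of their Entrez identifiers were found in the RefSeq table. The probe set with the highest mean stood for its gene. Averages were fitted with limma 3.58.1 (R 4.3.3), with an intensity trend and Benjamini-Hochberg adjustment over all 10519 genes above the filter. Both the size rule and limma were also run on simulated data, but the outcome is not given here and is no check of these results. Other settings tried were thresholds of 1.5- and 3-fold, the filter left out or set at the 60th percentile, low values raised to the filter, averaged probe sets, centred arrays, and limma without the trend. All 9 measured genes are named, with up to 4 genes of each list by size of difference and the 5 nearest to Sycp3 and to Stag3. Genes named beyond these were chosen after their values were seen. The members and lists were chosen with earlier results of these data known.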

Additional observations from a re-analysis of the deposited data

Results flagged for a closer look

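Sycp3 and Meioc had PRDM14 differences of opposite sign in the knockdown and scramble backgrounds. The PRDM14 difference in knockdown cells minus that in scramble cells was 3.86 for Sycp3 and 2.19 for Meioc. With 1 array per condition this difference between the backgrounds was not tested.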

How the results depend on the processing

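The counts of called genes among the 9 were, in the order PRDM14 in knockdown cells, PRDM14 in scramble cells, knockdown with PRDM14, knockdown without PRDM14, and difference of the PRDM14 differences, 1, 2, 2, 3 and 3. At 1.5-fold they were 2, 5, 2, 5 and 5, where 2.81%, 8.19%, 4.34%, 5.09% and 9.10% of all genes tested were called, and at 3-fold 0, 2, 1, 1 and 2, beside 0.126%, 0.502%, 0.116%, 0.203% and 0.466%. With low values raised to the filter they were 0, 1, 1, 1 and 2, beside 0.543%, 1.78%, 0.940%, 0.879% and 2.03%. The median over the 9 genes then was −0.53 in place of −0.71 for PRDM14 in scramble cells and −0.14 in place of −0.78 for the knockdown without PRDM14. With no filter, a filter at the 60th percentile, averaged probe sets, or centred arrays, the 5 counts did not change. Averaging could not change them, since each of the 9 genes has 1 probe set. Over all genes it gave 43 in place of 65 calls for PRDM14 in knockdown cells. Leaving out the filter could not remove a call, and centring moved no array by more than 0.008. No called difference of a member changed sign under raised values, averaged probe sets or centred arrays. For a call between 2 arrays these settings could not have reversed the sign. The additive fit called 0 of these genes under each of its 6 alternatives. Signals near the filter limit Syce1, Stag3, Smc1b, Hormad1 and Meioc, each below it on at least 2 arrays. Rec8 also stayed close to it, between 5.46 and 5.53. Sycp3 was above it on all 4 arrays, but its Scramble + PRDM14 value of 5.50 lay in that same range. The Sycp3 differences of −2.92, 1.86 and 3.86 each use that value. No paired analysis was possible because each condition has 1 array. For the same reason no replicate could be left out.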
